A study of Mus musculus with 16 samples.

Results

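The genes described here are 34 genes of the cell cycle and of DNA replication, chosen by name from the tables of counts. They were 34 of the 55278 gene symbols in those tables, and each of the 34 had a row. The list holds 13 genes of the G1/S step and of S phase and 21 genes of G2 and mitosis. The hearts came from male C57BL/6J mice aged 8 to 12 weeks. Mice of the genotype PPARa-Flox carried floxed Ppara alleles, and mice of the genotype PPARa deficient lacked PPARα (a nuclear receptor that turns on genes of fatty acid use) in cardiomyocytes. Animals of both genotypes were injected intraperitoneally with the endotoxin lipopolysaccharide (LPS, 5 mg/kg), which comes from the outer wall of bacteria, or with saline (PBS) as the control. The hearts were collected after 12 h, and each of the 4 groups has 4 libraries. The Cre line and its promoter are not given in the sources used here, and none of the groups is labelled as Cre without floxed alleles, so effects of Cre and of the lost receptor cannot be told apart. The labels do not name the animal behind each library, so p-values measure the spread between these samples.

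A dividing cell first builds the machinery of DNA copying and then that of chromosome segregation. At the G1/S step cyclin E with its kinase releases E2F transcription factors from the retinoblastoma proteins. The MCM helicase is loaded on DNA at replication origins, and PCNA clamps the polymerases to the template. Cyclin B with CDK1 drives entry into mitosis, where Aurora and Polo-like kinases, kinesins and kinetochore proteins build the spindle. The anaphase-promoting complex, held back by the checkpoint until every chromosome is attached, then ends mitosis. Adult cardiomyocytes rarely divide, so in a heart these transcripts can come from other cells, such as endothelial cells, fibroblasts and leukocytes, as well as from cardiomyocytes. In RNA of whole tissue, fewer cells of a type and less RNA per cell cannot be told apart.

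Library totals ran from 65569134 to 75436023 estimated counts, and the 34 genes took 0.009551% to 0.01861% of a library. Levels below are CPM (counts per 1000000 counts of the library), scaled by TMM factors, with means ± SD over 4 libraries. Ppara itself ranged from 37.4 to 59.3 CPM in Flox PBS hearts, 7.23 to 14.7 in Flox LPS, 11.4 to 17.6 in deficient PBS and 4.25 to 11.9 in deficient LPS hearts, so its range in deficient hearts lay below that in Flox hearts under PBS and overlapped it after LPS. The extraction text in the labels speaks of islets, while the tissue label is heart. The islet hormone genes Ins1, Ins2 and Gcg had 0 CPM in all 16 libraries, and 5 cardiomyocyte markers summed to 24575 CPM or more in each. The numbers in the column headers ran from 957 to 1075 for PBS and from 1739 to 1769 for LPS libraries. Whatever these numbers stand for, their order cannot be told apart from the treatment.

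Calls rest on edgeR's quasi-likelihood test over 18713 genes that passed a filter on low counts, which all 34 members passed. A gene is called at a Benjamini-Hochberg adjusted p under 0.05, changes are log2 fold changes ± SE, and the median change over all genes tested was 0.01 in both LPS comparisons. LPS raised 7 of the 34 members and lowered 2 in Flox hearts, where 20.2% of all genes tested were called higher and 19.1% lower. In deficient hearts it raised 5 and lowered 3, beside 19.4% and 18.3% of all genes. As a share of the 34, the calls were 20.6% higher and 5.88% lower in Flox hearts and 14.7% and 8.82% in deficient hearts. All of the rises lay among the G1/S and S phase genes. Of the 13 G1/S and S phase genes, 7 rose and 1 fell in Flox hearts, with a median log2 change of 0.47, and 5 rose and 1 fell in deficient hearts, with a median of 0.28. Of the 21 G2 and mitosis genes, none rose by this test in either genotype, 1 fell in Flox and 2 fell in deficient hearts, and the medians were −0.58 and −0.66. At an unadjusted p under 0.05, edgeR had 4 of these 21 (19.0%) in Flox and 2 (9.52%) in deficient hearts, all with negative changes, beside 46.8% and 45.7% of all genes tested, so both shares lay below the background.

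**Figure D1:**
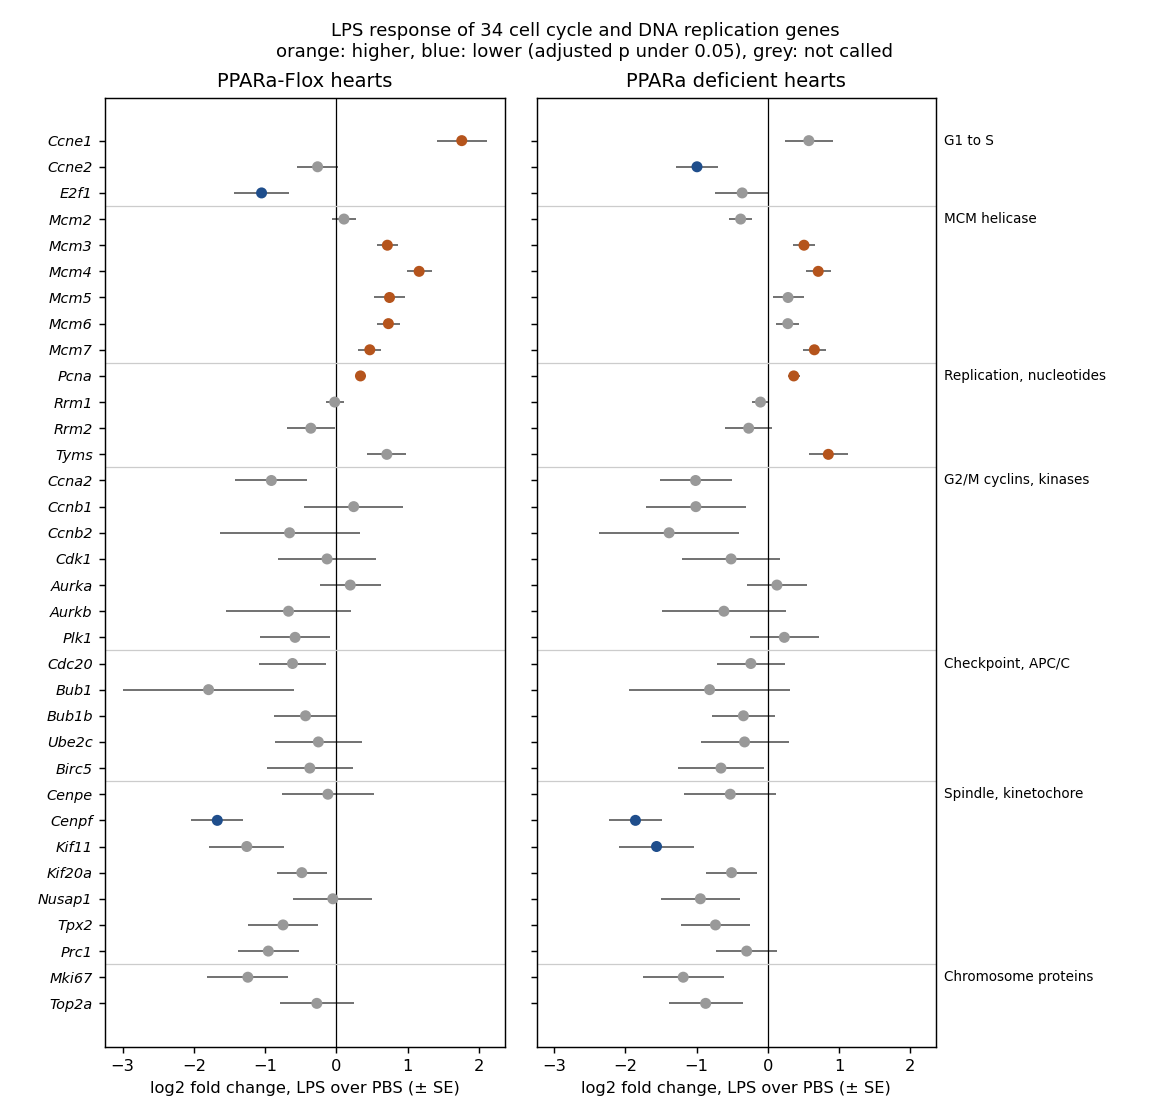
Log2 fold change of LPS over PBS for each of the 34 genes (points) with its SE (bars), in PPARa-Flox hearts on the left and PPARa deficient hearts on the right, ordered by role. Coloured points lie to the right of 0 only among the G1/S and S phase genes at the top, and the largest fall called in both genotypes is that of Cenpf.

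Promoter sequences are shown for members of each phase because the genes of the G1/S step and of mitosis are known for different promoter elements. E2F factors bind sites such as TTTGGCGC, TTTCGCGC and TTTCCCGC, known for genes of the G1/S step. The cell cycle genes homology region (CHR), TTTGAA or TTCGAA, is known for genes of G2 and mitosis, often beside CCAAT boxes. RefSeq start sites on GRCm38.p6 gave windows of 300 bases, from 250 before to 50 after the start, for 28 of the 34 members (30 windows, since Mcm7 and Prc1 had more than 1 start). Windows for Aurkb, Ccna2, Ccne2, Kif20a, Mcm4 and Tpx2 were not used here. Both strands were searched for exact letters, and E2F forms can overlap each other. A match describes the letters and is neither a shown binding site nor a cause of these levels.

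An E2F form was present in 4 of 12 windows of G1/S and S phase genes (33.3%), in 1 of 18 windows of G2 and mitosis genes (5.56%) and in 1.84% of the 32851 windows of all genes. The 4 windows belonged to Mcm3, Mcm5, Mcm6 and Mcm7, which encode subunits of the MCM helicase and were all called higher after LPS in Flox hearts. Ccne1 and Pcna were called higher there too, but their windows held no E2F form, and no window was used for Mcm4. The 4 windows lie at chr1:20820263-20820562 on the minus strand for Mcm3, chr1:128359656-128359955 on the minus strand for Mcm6, chr8:75109259-75109558 on the plus strand for Mcm5 and chr5:138171834-138172133 on the minus strand for Mcm7. Each is written 5′ to 3′ on the gene's own strand, with E2F forms on either strand in capitals. In Mcm7 the first capital run, TTCGAA, is a CHR form.
Mcm3: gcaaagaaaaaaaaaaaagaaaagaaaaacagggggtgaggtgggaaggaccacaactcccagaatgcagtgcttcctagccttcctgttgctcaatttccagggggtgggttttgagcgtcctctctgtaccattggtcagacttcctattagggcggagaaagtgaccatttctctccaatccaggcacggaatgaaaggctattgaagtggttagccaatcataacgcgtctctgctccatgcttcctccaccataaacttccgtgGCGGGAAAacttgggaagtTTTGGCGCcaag
Mcm6: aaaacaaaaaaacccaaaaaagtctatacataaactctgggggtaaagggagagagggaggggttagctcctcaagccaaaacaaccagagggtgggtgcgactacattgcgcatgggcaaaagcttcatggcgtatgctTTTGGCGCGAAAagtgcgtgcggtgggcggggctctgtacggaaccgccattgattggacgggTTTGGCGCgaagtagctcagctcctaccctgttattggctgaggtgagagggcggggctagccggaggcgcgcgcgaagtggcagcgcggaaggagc
Mcm5: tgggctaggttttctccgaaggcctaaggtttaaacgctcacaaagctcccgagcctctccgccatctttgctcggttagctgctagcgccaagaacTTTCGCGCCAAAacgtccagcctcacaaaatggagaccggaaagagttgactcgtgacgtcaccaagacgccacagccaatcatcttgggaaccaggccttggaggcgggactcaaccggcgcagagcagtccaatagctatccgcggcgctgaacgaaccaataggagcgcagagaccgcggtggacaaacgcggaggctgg
Mcm7: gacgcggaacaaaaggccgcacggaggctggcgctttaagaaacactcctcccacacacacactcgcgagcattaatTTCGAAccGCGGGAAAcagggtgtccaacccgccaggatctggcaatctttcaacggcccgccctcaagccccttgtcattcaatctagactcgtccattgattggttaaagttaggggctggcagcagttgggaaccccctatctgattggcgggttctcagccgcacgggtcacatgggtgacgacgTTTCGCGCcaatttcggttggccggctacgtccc

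A CHR form was present in 14 of 18 windows of G2 and mitosis genes (77.8%), in 2 of 12 windows of G1/S and S phase genes (16.7%) and in 19.2% of all windows. CCAAT was present in 83.3% of member windows and in 37.4% of all windows. The windows of 4 G2 and mitosis genes are shown, those with a CHR form and the smallest adjusted p for LPS in Flox hearts. They lie at chr1:189688037-189688336 on the minus strand for Cenpf, chr19:37376132-37376431 on the plus strand for Kif11, chr7:80294201-80294500 on the plus strand for Prc1 and chr7:135716330-135716629 on the minus strand for Mki67, with the CHR form in capitals. Counted from the start site, it begins at base 2 in Cenpf, at base −5 in Prc1 and at bases −116 and −98 in Mki67. In Kif11 the form lies on the other strand, begins at base −19 and reads as TTCAAA here. Of these 4 genes, Cenpf was called lower in both genotypes and Kif11 in deficient hearts.
Cenpf: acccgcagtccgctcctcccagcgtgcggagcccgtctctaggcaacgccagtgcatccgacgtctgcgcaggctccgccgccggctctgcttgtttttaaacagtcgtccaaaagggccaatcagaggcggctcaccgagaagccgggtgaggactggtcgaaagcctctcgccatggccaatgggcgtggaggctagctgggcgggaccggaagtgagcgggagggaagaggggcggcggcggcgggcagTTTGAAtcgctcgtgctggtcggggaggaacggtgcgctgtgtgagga
Kif11: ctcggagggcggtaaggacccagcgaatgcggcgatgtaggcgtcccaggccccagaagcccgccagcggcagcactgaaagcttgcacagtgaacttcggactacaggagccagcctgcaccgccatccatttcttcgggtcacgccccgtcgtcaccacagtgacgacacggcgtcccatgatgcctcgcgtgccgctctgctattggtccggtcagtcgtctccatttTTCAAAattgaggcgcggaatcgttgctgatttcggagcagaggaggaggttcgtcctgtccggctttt
Prc1: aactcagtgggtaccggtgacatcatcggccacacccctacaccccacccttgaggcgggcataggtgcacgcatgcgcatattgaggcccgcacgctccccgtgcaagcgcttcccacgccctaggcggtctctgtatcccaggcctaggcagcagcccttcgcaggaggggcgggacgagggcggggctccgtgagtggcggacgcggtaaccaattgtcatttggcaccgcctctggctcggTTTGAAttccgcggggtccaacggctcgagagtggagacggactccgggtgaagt
Mki67: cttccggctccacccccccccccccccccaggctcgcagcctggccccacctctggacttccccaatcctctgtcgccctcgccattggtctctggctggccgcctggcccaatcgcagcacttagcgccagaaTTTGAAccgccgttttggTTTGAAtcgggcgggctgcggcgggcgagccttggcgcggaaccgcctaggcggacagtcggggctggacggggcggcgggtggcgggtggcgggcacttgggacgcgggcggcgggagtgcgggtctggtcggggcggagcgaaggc

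Per kilobase of exon, the levels of the 34 genes over all 16 libraries ran from 0.0482 CPM per kb for Cenpe to 13.9 CPM per kb for Pcna. Pcna was followed by Mcm4 at 2.57, Mcm7 at 2.10, Mcm6 at 1.98, Mcm3 at 1.79 and Rrm1 at 1.25 CPM per kb. The highest of the G2 and mitosis genes on this scale was Cdc20 at 0.961, and the lowest were Bub1 at 0.0566 and Cenpe. The 6 highest genes on this scale all belonged to replication, while Cdc20 and Cenpf (0.547 CPM per kb) lay above Tyms (0.273) and E2f1 (0.286). Ccnb2, Aurkb and Bub1 each had at least 1 library with 0 counts.

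**Figure D2:**
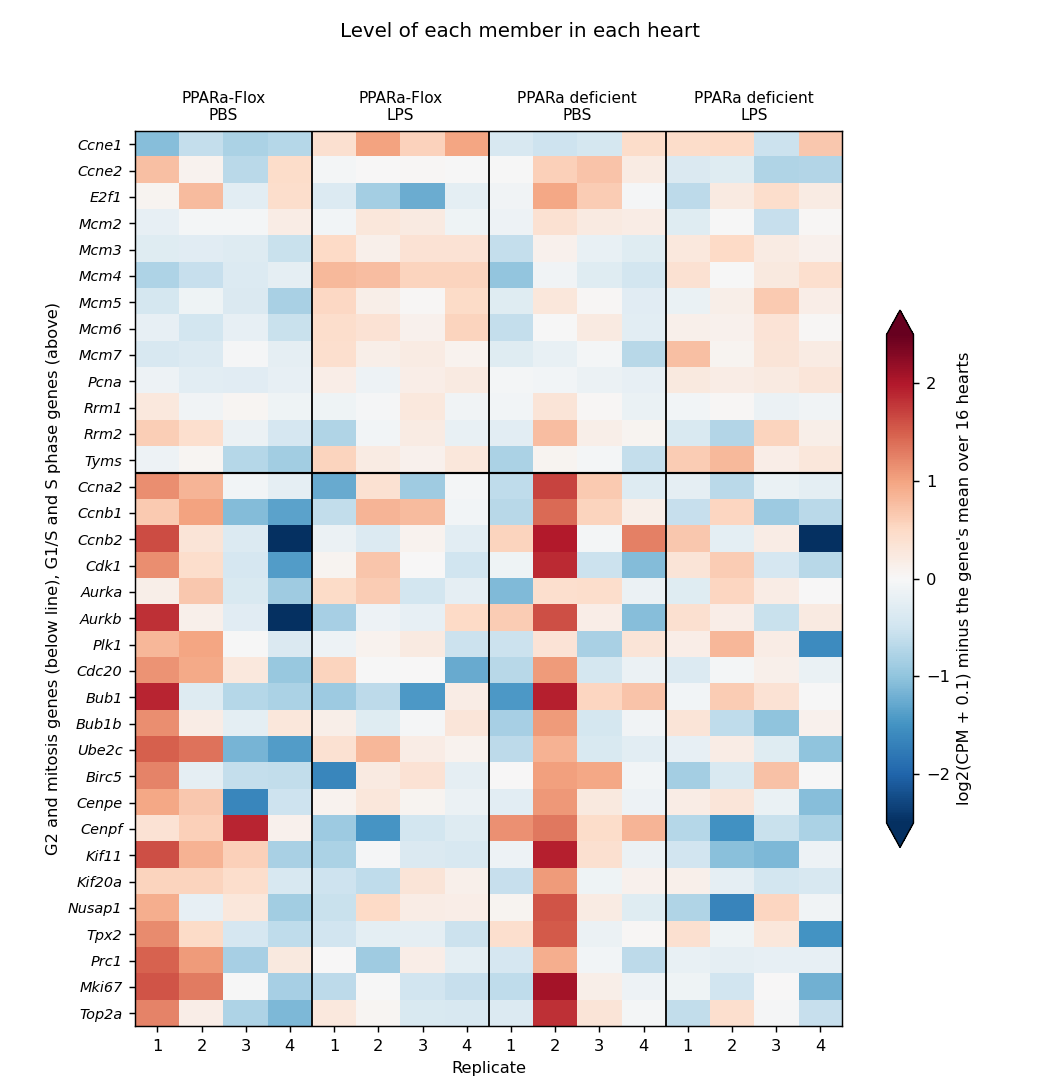
Level of each of the 34 genes (rows) in each of the 16 hearts (columns, by group and replicate) as log2(CPM + 0.1) minus the gene's mean over all hearts, so that red is above and blue below that mean. Flox PBS replicate 1 and deficient PBS replicate 2 are red over most G2 and mitosis genes. Mcm3, Mcm4 and Mcm7 shift towards red with LPS in both genotypes, and Mcm5 and Mcm6 in Flox hearts. Mcm2 does not, and the shift of Pcna is slight.

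Cyclin E, the cyclin of the G1/S step, is made from Ccne1 and Ccne2. Ccne1 (chr7:38097984-38107534, GRCm38, minus strand) measured 0.313, 0.468, 0.401 and 0.427 CPM in Flox PBS hearts and 1.04, 1.62, 1.19 and 1.61 CPM in Flox LPS hearts. All 4 Flox LPS libraries lay above all 4 Flox PBS libraries, and the change was 1.76 ± 0.35 (adjusted p = 0.000688, edgeR). Deficient hearts had 0.55, 0.498, 0.539 and 1.08 CPM under PBS and 1.08, 1.12, 0.494 and 1.27 CPM after LPS. These ranges overlapped, since PBS replicate 4 was as high as the LPS hearts and LPS replicate 3 as low as the PBS hearts, and the change of 0.58 ± 0.34 was not called (adjusted p = 0.2). Without deficient PBS replicate 4 it was 0.91, with an adjusted p of 0.049.

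Ccne2 (chr4:11191351-11204779, plus strand) went the other way in deficient hearts. It measured 1.32, 2.07, 2.24 and 1.55 CPM under PBS and 1.02, 1.07, 0.755 and 0.769 CPM after LPS, with no overlap, a change of −0.99 ± 0.29 (adjusted p = 0.0116, edgeR). In Flox hearts it measured 2.32, 1.42, 0.801 and 1.88 CPM under PBS and 1.29, 1.35, 1.37 and 1.33 CPM after LPS. The LPS hearts were closely alike and sat inside the PBS range, and the change of −0.26 ± 0.28 was not called. Ccne2 overlaps Ints8 on the other strand over 5622 bases, and Ints8 also fell, by 0.34 on the log2 scale in Flox and by 0.60 in deficient hearts. The kit is stranded per the labels, but the strand setting of the counting is not given in the sources used here, so reads of overlapping genes may be mixed.

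E2f1 (chr2:154559407-154569892, minus strand) encodes an activating E2F factor. It measured 0.868, 1.51, 0.672 and 1.15 CPM in Flox PBS and 0.637, 0.416, 0.291 and 0.679 CPM in Flox LPS hearts. The groups overlapped narrowly, LPS replicate 4 lying just above PBS replicate 3, and the fall of −1.05 ± 0.39 was called (adjusted p = 0.0397, edgeR). The call was lost in 11 of 29 alternative analyses, among them limma-voom, with adjusted p from 0.0257 to 0.198 over all of them. Deficient hearts had 0.77, 1.71, 1.34 and 0.804 CPM under PBS and 0.488, 0.992, 1.16 and 0.964 CPM after LPS, an overlap, and the change of −0.36 ± 0.38 was not called.

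The MCM genes encode the ring of 6 proteins that unwinds DNA at the fork. In Flox hearts LPS raised 5 of the 6, with a median change of 0.72, and in deficient hearts it raised 3, with a median of 0.40. Summed over the 6 genes, levels were 31.9 to 36.5 CPM in Flox PBS and 51.0 to 58.5 CPM in Flox LPS hearts. In deficient hearts the sums were 29.4 to 43.0 CPM under PBS and 45.9 to 51.4 CPM after LPS. In neither genotype did the LPS and PBS sums overlap.

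Mcm4 (chr16:15623897-15637400, minus strand) had the smallest adjusted p of all members in Flox hearts. It measured 4.96, 5.72, 6.77 and 7.34 CPM in Flox PBS and 15.2, 14.7, 12.8 and 12.7 CPM in Flox LPS hearts, a change of 1.16 ± 0.18 (adjusted p = 5.69e-05, edgeR). Deficient hearts had 4.32, 8.08, 6.92 and 6.2 CPM under PBS and 11.3, 8.6, 10.2 and 11.6 CPM after LPS, a change of 0.71 ± 0.17 (adjusted p = 0.00398). In both genotypes every LPS heart lay above every PBS heart. After LPS all 4 deficient hearts also lay below all 4 Flox hearts, a difference taken up again with the genotypes.

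Mcm3 (chr1:20802968-20820312, minus strand), whose promoter window holds 2 E2F forms, measured 5.23, 5.37, 5.22 and 4.38 CPM in Flox PBS and 9.25, 7.11, 8.38 and 8.41 CPM in Flox LPS hearts. In deficient hearts it measured 4.26, 7.05, 5.68 and 5.27 CPM under PBS and 7.8, 9.27, 7.55 and 7.06 CPM after LPS. LPS libraries lay above PBS libraries throughout, although in deficient hearts LPS replicate 4 exceeded PBS replicate 2 only in the second decimal. The changes were 0.71 ± 0.15 (adjusted p = 0.00126) and 0.51 ± 0.15 (adjusted p = 0.0137). The call in deficient hearts was lost in 4 of 29 alternatives, among them without deficient PBS replicate 1 and without deficient LPS replicate 2.

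Mcm6 (chr1:128331590-128359664, minus strand) measured 7.72, 6.52, 7.82 and 6.05 CPM in Flox PBS and 12.2, 11.5, 9.71 and 13.2 CPM in Flox LPS hearts, with no overlap and a change of 0.73 ± 0.16 (adjusted p = 0.00179). In deficient hearts it measured 5.93, 8.96, 10.6 and 7.43 CPM under PBS and 9.86, 9.66, 11.3 and 9.1 CPM after LPS. PBS replicate 3 was above most LPS hearts there, and the change of 0.28 ± 0.16 was not called (adjusted p = 0.19). Mcm5 (chr8:75109569-75128439, plus strand) showed the same picture. Its levels were 2.09, 2.66, 2.2 and 1.59 CPM in Flox PBS and 4.13, 3.2, 2.94 and 4.05 CPM in Flox LPS hearts, a change of 0.74 ± 0.22 (adjusted p = 0.0122) without overlap. In deficient hearts the ranges of 2.31 to 3.51 CPM under PBS and 2.55 to 4.56 CPM after LPS overlapped, and the change of 0.28 ± 0.22 was not called (adjusted p = 0.334).

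Mcm7 (chr5:138164583-138172422, minus strand) was called in both genotypes. It measured 6.84, 7.09, 8.88 and 7.77 CPM in Flox PBS and 12.2, 10.1, 10.4 and 9.6 CPM in Flox LPS hearts, a change of 0.47 ± 0.16 (adjusted p = 0.0321). Deficient hearts had 7.36, 7.94, 8.74 and 5.53 CPM under PBS and 15.3, 9.49, 11.4 and 10.4 CPM after LPS, a change of 0.65 ± 0.16 (adjusted p = 0.00463). No LPS range overlapped its PBS range. In Flox hearts the call was lost in 9 of 29 alternatives, with adjusted p from 0.0173 to 0.281. Mcm7 overlaps Ap4m1 and Cops6 by 421 and 64 bases on the other strand, neither of which was called after LPS.

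Mcm2 (chr6:88883474-88898780, minus strand) was the member of the ring that was not called in either genotype. Its levels were 5.02 to 6.62 CPM in Flox PBS and 5.32 to 7.0 CPM in Flox LPS hearts, a change of 0.11 ± 0.16. In deficient hearts it measured 5.25 to 7.49 CPM under PBS and 3.83 to 5.87 CPM after LPS, a change of −0.38 ± 0.16 (adjusted p = 0.0782). Its promoter window holds a CHR form and no E2F form.

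**Figure D3:**
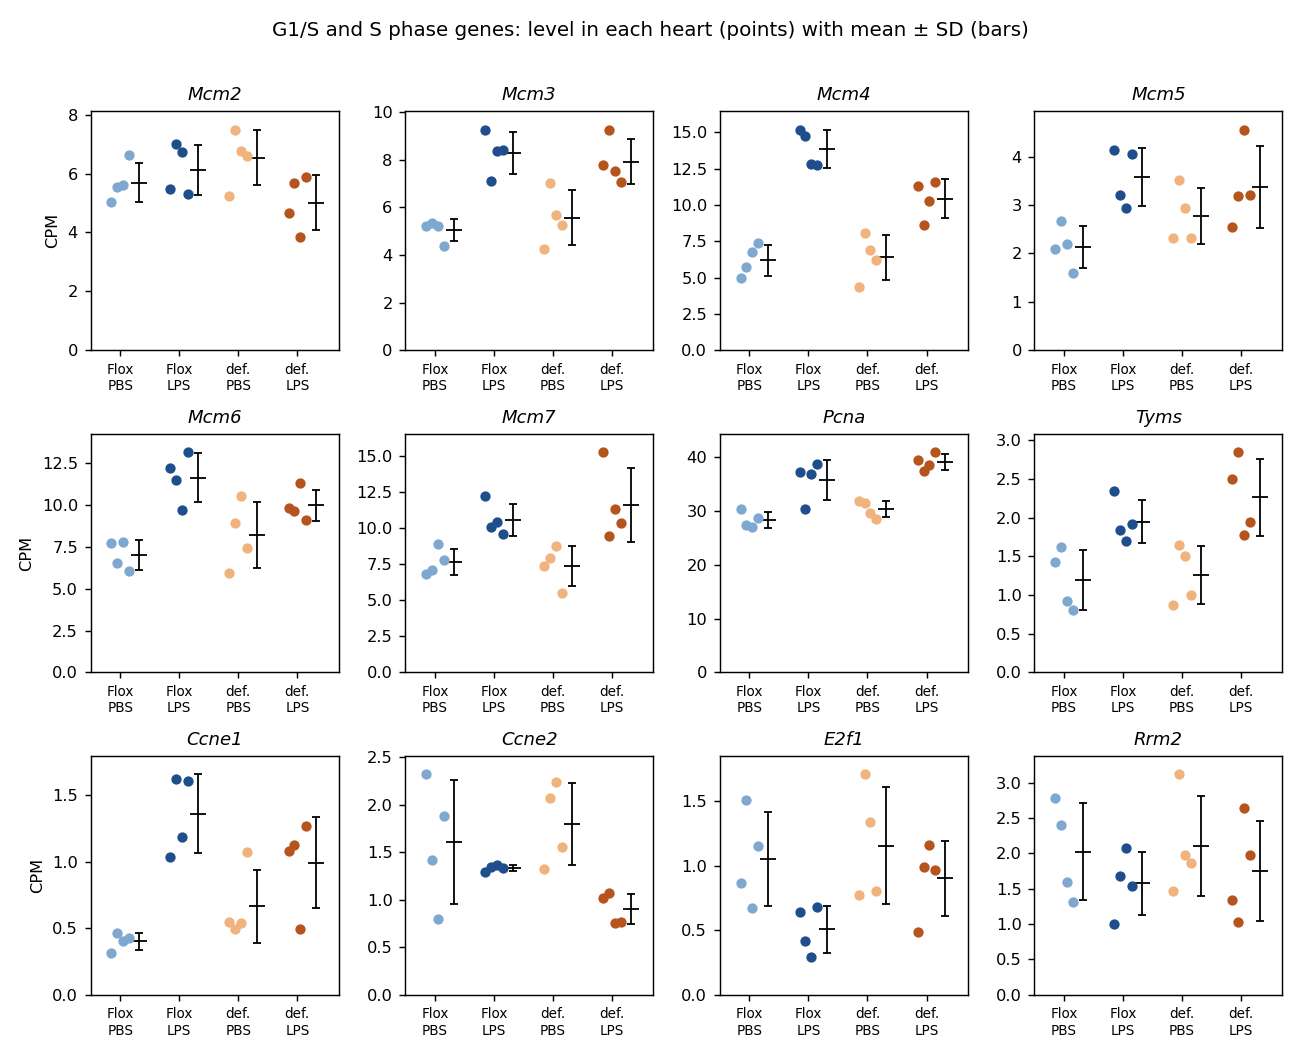
Level in CPM (y axis, from 0) of 12 G1/S and S phase genes in each heart (points) by group, with mean ± SD of 4 hearts (bars). LPS hearts lie above PBS hearts of the same genotype for Mcm3, Mcm4, Mcm7, Pcna and Tyms, whereas Mcm5, Mcm6 and Ccne1 separate only in Flox hearts.

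Pcna (chr2:132249162-132253314, minus strand), the sliding clamp of the polymerases, rose by a small and even amount. It measured 30.3, 27.4, 27.1 and 28.7 CPM in Flox PBS and 37.3, 30.4, 36.9 and 38.8 CPM in Flox LPS hearts, a change of 0.34 ± 0.08 (adjusted p = 0.00331). Deficient hearts had 31.8, 31.4, 29.7 and 28.5 CPM under PBS and 39.5, 37.5, 38.5 and 41.0 CPM after LPS, a change of 0.36 ± 0.08 (adjusted p = 0.00191). Neither pair of groups overlapped, although Flox LPS replicate 2 lay just above the highest Flox PBS heart.

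Tyms (chr5:30058202-30073617, minus strand) encodes thymidylate synthase, which makes the thymidine nucleotide for DNA. It measured 1.42, 1.62, 0.917 and 0.811 CPM in Flox PBS and 2.34, 1.84, 1.7 and 1.92 CPM in Flox LPS hearts, without overlap, but the change of 0.71 ± 0.27 missed the threshold (adjusted p = 0.0502). In deficient hearts it measured 0.866, 1.64, 1.51 and 1.01 CPM under PBS and 2.49, 2.85, 1.77 and 1.94 CPM after LPS, again without overlap, a change of 0.85 ± 0.27 (adjusted p = 0.0211). Tyms therefore sat on either side of the threshold with similar changes, and it was called in Flox hearts in 9 alternatives. Its call in deficient hearts was lost in 6 of 29 alternatives, with adjusted p from 0.0117 to 0.0717 over all of them. Rrm1 and Rrm2 encode the large and small subunits of ribonucleotide reductase. Rrm1 measured 12.6 to 16.5 CPM in Flox PBS and 12.7 to 16.4 CPM in Flox LPS hearts (−0.02 ± 0.12), and 12.1 to 17.1 CPM and 12.3 to 14.0 CPM in deficient hearts (−0.10 ± 0.12). Rrm2 changes of −0.36 ± 0.33 and −0.27 ± 0.33 were not called either, so the nucleotide genes did not move as 1 group.

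In Flox hearts 8 of the 34 members, all of them G1/S and S phase genes, had every LPS library above every PBS library, beside 19.2% of all genes tested, and 1 had every LPS library below, beside 18.4%. In deficient hearts 5 lay above, beside 19.5% of all genes, and 2 lay below, beside 18.4%. Summed over the 13 G1/S and S phase genes, PBS hearts held 80.6 to 86.5 CPM in the Flox and 79.3 to 100.6 CPM in the deficient group. LPS hearts held 104.2 to 114.8 CPM and 104.4 to 110.4 CPM. Pcna alone made up 27.1 to 41.0 CPM of these sums.

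Markers of other cell types moved in both directions in the same hearts. Of 6 neutrophil markers 5 were tested and 4 rose in each genotype, and their summed level went from 2.16 to 3.12 CPM in Flox PBS to 18.5 to 41.8 CPM in Flox LPS hearts and from 1.27 to 8.27 CPM to 23.5 to 26.2 CPM in deficient hearts. Ly6g, the defining neutrophil gene, did not pass the filter and was not tested. It had 0 counts in all 8 PBS libraries and stayed near 0 after LPS, at most 0.215 CPM in Flox and 0.232 CPM in deficient hearts (at most 17 counts). Of 4 monocyte markers 3 rose in each genotype, with sums of 2.18 to 4.75 CPM under PBS and 12.7 to 19.8 CPM after LPS, while Ccr2 fell in deficient hearts. Of 6 macrophage markers, Cd68 rose and Csf1r and Mrc1 fell in each genotype, and the sums were 128 to 176 CPM under PBS and 103 to 161 CPM after LPS. None of the 4 T and NK cell markers tested was called, and of 3 B cell markers tested Cd79a fell in Flox hearts, with sums of at most 2.58 and 1.43 CPM in any heart. Pericyte and smooth muscle markers fell, 3 of 4 in each genotype, from sums of 642 to 713 CPM under PBS to 339 to 423 CPM after LPS. Of 5 fibroblast markers 3 fell and 1 rose in each genotype, with sums of 547 to 620 CPM under PBS and 516 to 691 CPM after LPS. Of 6 endothelial markers 2 fell in each genotype, with sums of 812 to 980 CPM under PBS and 710 to 872 CPM after LPS. Of 5 cardiomyocyte markers, 5 fell in Flox and 4 in deficient hearts, with sums of 39948 to 47979 CPM under PBS and 24575 to 30741 CPM after LPS. The part of these cell types in the rise of the replication genes was not tested.

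Among the G2 and mitosis genes the clear change was that of Cenpf (chr1:189640606-189688086, minus strand), which encodes a large kinetochore protein. Cenpf measured 8.58, 10.1, 25.2 and 7.23 CPM in Flox PBS and 3.53, 2.34, 4.83 and 5.33 CPM in Flox LPS hearts, a change of −1.67 ± 0.37 (adjusted p = 0.00162, edgeR). Deficient hearts had 14.9, 16.9, 9.22 and 12.1 CPM under PBS and 4.06, 2.28, 4.53 and 3.8 CPM after LPS, a change of −1.86 ± 0.37 (adjusted p = 0.000748). Every PBS heart lay above every LPS heart, and the call was kept in all 29 alternatives in each genotype. Across PBS hearts the level of Cenpf went with that of the other mitosis genes in some hearts and not in others. Deficient PBS replicate 2 was highest of its group for Cenpf and for the sum of the other 20 genes, and Flox PBS replicate 4 was lowest for both. Flox PBS replicate 3 had the highest Cenpf level of all 16 hearts, while the other 20 mitosis genes summed to 19.4 CPM there. They summed to 55.7 CPM in Flox PBS replicate 1, where Cenpf was at 8.58 CPM. Deficient PBS replicate 1 was lowest of its group for that sum, at 17.2 CPM, with Cenpf at 14.9 CPM. Cenpf overlaps a processed pseudogene on the other strand by 141 bases.

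Kif11 (chr19:37376403-37421859, plus strand) encodes the kinesin that pushes spindle poles apart. It measured 1.09, 4.91, 1.62 and 1.08 CPM in deficient PBS and 0.831, 0.525, 0.494 and 1.09 CPM in deficient LPS hearts, a called change of −1.56 ± 0.53 (adjusted p = 0.0289). PBS replicate 2 was far above the others, the lowest PBS heart lay just under the highest LPS heart, and the call was lost in 9 of 29 alternatives. Without that replicate the change was −0.78. In Flox hearts Kif11 measured 3.88, 2.25, 1.85 and 0.64 CPM under PBS and 0.652, 1.16, 0.911 and 0.875 CPM after LPS, a change of −1.26 ± 0.53 that was not called (adjusted p = 0.0693). DESeq2 called it lower there (adjusted p = 0.0369), as did edgeR in some alternatives, such as without Flox PBS replicate 4 (adjusted p = 0.0208). Most alternatives did not.

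With all libraries, the other mitosis genes gave no call by edgeR and had wide errors. Mki67, which encodes the proliferation marker Ki-67, measured 8.62, 7.12, 2.82 and 1.57 CPM in Flox PBS and 1.78, 2.81, 2.02 and 1.88 CPM in Flox LPS hearts (−1.24 ± 0.57, adjusted p = 0.0961). In deficient hearts it measured 1.79, 12.3, 3.15 and 2.61 CPM under PBS and 2.64, 2.01, 2.87 and 1.19 CPM after LPS (−1.19 ± 0.57, adjusted p = 0.115). In each genotype the LPS hearts were close together and lay near or within the lower part of a wide PBS range. DESeq2 called Mki67 lower in Flox hearts (adjusted p = 0.0422). EdgeR called it lower there without Flox PBS replicate 4 (adjusted p = 0.0391) or deficient PBS replicate 2 (adjusted p = 0.0323). With only PBS hearts numbered under 1000, chosen after seeing the data, edgeR called it lower in both genotypes (adjusted p = 0.0169 and 0.031). The remaining alternatives did not call it. Top2a, which encodes the topoisomerase that untangles replicated chromosomes, ranged from 1.15 to 6.29 CPM in Flox PBS and from 2.05 to 9.55 CPM in deficient PBS hearts, beside 1.95 to 3.17 and 1.68 to 3.55 CPM after LPS, with changes of −0.28 ± 0.52 and −0.87 ± 0.52.

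The cyclins and kinases of mitotic entry were not called in either genotype. For Ccna2, which encodes cyclin A, the changes were −0.91 ± 0.50 in Flox and −1.01 ± 0.50 in deficient hearts. Ccna2 overlaps Exosc9 on the other strand by 863 bases, and Exosc9 was called higher, by 0.56 and 0.51. Cdk1, the kinase of mitotic entry, changed by −0.13 ± 0.68 and −0.51 ± 0.68, and its partners cyclin B, from Ccnb1 and Ccnb2, by 0.24 ± 0.70 and −0.66 ± 0.98 in Flox and by −1.01 ± 0.71 and −1.38 ± 0.99 in deficient hearts. Aurka, the centrosome Aurora kinase, gave 0.19 ± 0.42 and 0.13 ± 0.42, and Aurkb, the Aurora kinase of the chromosomal passenger complex, −0.67 ± 0.87 and −0.62 ± 0.87. Plk1, the Polo-like kinase, gave −0.58 ± 0.49 and 0.23 ± 0.49. The SEs of these 7 genes ran from 0.42 to 0.99.

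Genes of the checkpoint and of the anaphase-promoting complex were not called either. Bub1 and Bub1b encode checkpoint kinases, and Bub1 changed by −1.79 ± 1.19 in Flox and −0.82 ± 1.13 in deficient hearts at levels of 0 to 0.942 CPM. Bub1b changed by −0.43 ± 0.44 and −0.34 ± 0.44. Cdc20, the activator of the complex, changed by −0.62 ± 0.48 and −0.24 ± 0.48, and Ube2c, its ubiquitin-conjugating enzyme, by −0.25 ± 0.61 and −0.33 ± 0.62. Ube2c overlaps Tnnc2 on the other strand by 1662 bases, and Tnnc2 was called lower in Flox hearts at a mean level of only 0.14 CPM. Birc5, which encodes survivin of the passenger complex, changed by −0.37 ± 0.60 and −0.66 ± 0.60. All 10 changes of these checkpoint and complex genes were negative.

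Among the remaining spindle genes, Cenpe, the kinetochore kinesin, changed by −0.12 ± 0.64 in Flox and −0.53 ± 0.64 in deficient hearts. Kif20a, a kinesin of cytokinesis, changed by −0.49 ± 0.35 and −0.51 ± 0.35, and Prc1, which bundles microtubules of the central spindle, by −0.96 ± 0.43 (adjusted p = 0.0909) and −0.30 ± 0.43. Prc1 is overlapped on the other strand over its whole length (21810 bases) by Rccd1. The mean level of Rccd1 was 3.69 CPM beside 2.11 CPM for Prc1, and its changes of 0.44 and 0.03 were not called. Reads of Prc1 are therefore uncertain. Kif20a overlaps Cdc23 on the other strand by 2327 bases, and Cdc23 was not called. EdgeR called Prc1 lower in Flox hearts without Flox PBS replicate 3 (−1.26, adjusted p = 0.0152). It did so too with only PBS hearts numbered under 1000 (−1.54, adjusted p = 0.00576), and in no other alternative. Nusap1 and Tpx2 encode proteins that organise spindle microtubules. Nusap1 changed by −0.05 ± 0.55 and −0.95 ± 0.56, and Tpx2 by −0.75 ± 0.49 and −0.73 ± 0.49. In each genotype 19 of the 21 G2 and mitosis genes had a negative change. These genes share the same PBS hearts as their reference, and the next values show how far that count hangs on single libraries.

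Within the PBS groups the mitosis genes were high together in certain hearts. Flox PBS replicate 1 had the highest level of its group for 16 of the 21 genes and replicate 4 the lowest for 18. Deficient PBS replicate 2 had the highest level of its group for 20 of the 21. Summed over the 20 genes without Cenpf, Flox PBS hearts held 55.7, 38.8, 19.4 and 13.8 CPM and deficient PBS hearts 17.2, 66.7, 24.4 and 21.0 CPM. After LPS the sums were 19.8, 23.6, 20.9 and 18.7 CPM in Flox and 20.7, 21.6, 21.0 and 15.6 CPM in deficient hearts. The LPS hearts were alike and lay within the range of 5 of the PBS hearts (13.8 to 24.4 CPM), while the other 3 PBS hearts stood well above. The median coefficient of variation of the 21 genes was 65.5% under PBS and 30.7% after LPS in Flox hearts, and 65.7% and 36.9% in deficient hearts. For the 13 G1/S and S phase genes it was 16.3% and 12.6% in Flox and 24.1% and 18.9% in deficient hearts.

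**Figure D4:**
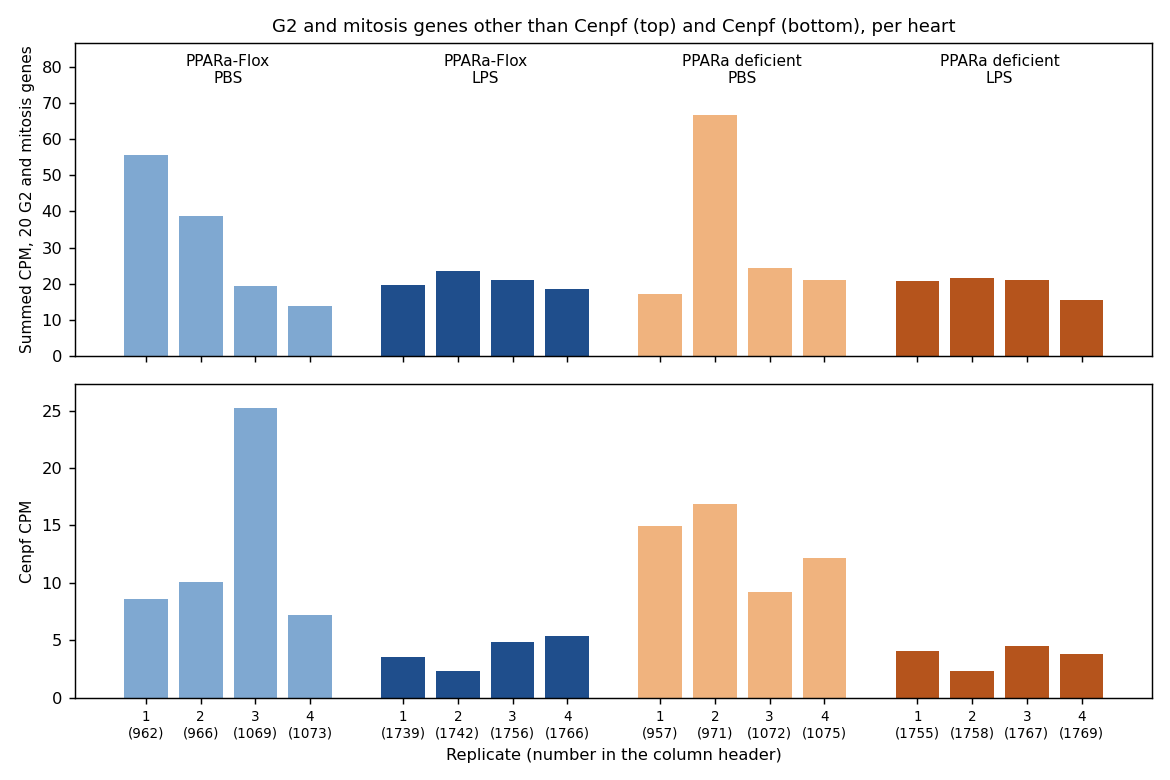
Summed CPM of the 20 G2 and mitosis genes other than Cenpf (top) and CPM of Cenpf (bottom) in each heart, by group, with the replicate and the number from the column header under each bar. The top panel is high in Flox PBS replicates 1 and 2 and deficient PBS replicate 2, whereas in the bottom panel all 8 PBS hearts exceed all 8 LPS hearts.

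The negative medians depended on these hearts. Without Flox PBS replicate 1 the median change of the 21 genes in Flox hearts was 0.04 in place of −0.58, and without deficient PBS replicate 2 that in deficient hearts was −0.07 in place of −0.66. The 3 high hearts carry numbers under 1000 in their column headers, as does deficient PBS replicate 1, which was low. With the PBS hearts numbered over 1000 alone, a choice made after seeing the data, the median was 0.34 in Flox hearts, and Ccnb1 and Ube2c were called higher (2.13 and 1.96, adjusted p = 0.0494 and 0.00625, edgeR). Cenpf was called lower under each of these choices. Summed erythroid markers, at 623 CPM, were highest in deficient PBS replicate 2, beside 61.3 to 266 CPM in the other deficient PBS hearts, and 311, 84.7, 314 and 91.1 CPM in Flox PBS replicates 1 to 4. After LPS the erythroid sums were 48.1 to 197 CPM in Flox and 17.0 to 144 CPM in deficient hearts. Of 3 erythroid markers tested, 2 fell in deficient hearts (median −1.96) and none was called by edgeR in Flox hearts, where none had an unadjusted p under 0.05. Of 4 neutrophil precursor genes, Mpo, Elane and Ctsg had 0 counts in all PBS libraries, and Prtn3 had 0 in 5 PBS libraries and 0.0404, 0.111 and 0.115 CPM in deficient PBS replicates 2, 3 and 4. The part of these cells in the high mitosis levels was not tested.

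Between genotypes no member was called. Under PBS edgeR called 0 of 34, beside 0.0321% of all genes higher and 0.401% lower in deficient hearts, and no member had an unadjusted p under 0.05, beside 5.57% of all genes. After LPS it called 0 of 34, beside 0.385% higher and 0.85% lower, and 2 members (5.88%), Mcm4 and E2f1, had an unadjusted p under 0.05, beside 9.13% of all genes. For the difference between the LPS effects of the genotypes it called 0 of 34, beside 0% of all genes in either direction, and 1 member (2.94%), Ccne1, had an unadjusted p under 0.05, beside 5.74% of all genes. None of these shares exceeded the background. DESeq2 and limma-voom likewise called 0 members in each of these comparisons.

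The members nearest to a call after LPS were G1/S and S phase genes. Mcm4 levels were 8.6 to 11.6 CPM in deficient and 12.7 to 15.2 CPM in Flox LPS hearts, without overlap, a difference of −0.41 with a 95% interval from −0.78 to −0.05 (adjusted p = 0.452). E2f1 was higher in 3 of 4 deficient LPS hearts than in any Flox LPS heart, a difference of 0.83 (adjusted p = 0.536). Ccne2 differed by −0.56 (adjusted p = 0.61), again without overlap, and Mcm2 by −0.29 (adjusted p = 0.678). None of these held after adjustment over all genes.

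Under PBS the smallest p-values belonged to Ccne1, higher in deficient hearts by 0.72 (adjusted p = 0.895, edgeR) with no overlap, then Mcm5 (0.38), Prc1 (−0.67) and Mcm6 (0.23). The LPS effect in deficient hearts minus that in Flox hearts was −1.18 for Ccne1, −0.49 for Mcm2, −0.45 for Mcm6 and −0.45 for Mcm4, the 4 members with the smallest p for the interaction, at adjusted p from 0.815 to 0.919. For Pcna the genotype difference after LPS was 0.13, with a 95% interval from −0.05 to 0.30, so a change beyond 0.30 in either direction lay outside it. For Mki67 the interval ran from −1.16 to 1.24 after LPS, so a difference of 1 on the log2 scale in either direction lay inside it.

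Other genes of the cell cycle were read in the same fit, from lists of 99 genes of which 98 were tested. LPS raised 18 (18.4%) and lowered 13 (13.3%) of the 98 in Flox hearts, beside 20.2% and 19.1% of all genes tested. In deficient hearts it raised 18 (18.4%) and lowered 12 (12.2%), beside 19.4% and 18.3% of all genes. None of these pooled shares exceeded the background, and the counts for each list below stand beside the same background. Single lists differed. Calls in either direction made up 71.4% (Flox) and 57.1% (deficient) of the kinase inhibitors, and 69.2% and 76.9% of the damage and growth arrest genes. For polymerase and fork genes the share was 42.1% in each genotype. All genes tested had 39.3% and 37.7%, and the remaining lists lay below that. No gene of these lists was called between genotypes or for the interaction by edgeR. At an unadjusted p under 0.05 there were 2 under PBS (2.04%), 11 after LPS (11.2%) and 5 for the interaction (5.10%), beside 5.57%, 9.13% and 5.74% of all genes. The median changes were 0.10 in both genotypes.

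Of 7 inhibitors of cyclin-dependent kinases, 2 rose and 3 fell in Flox hearts and 2 rose and 2 fell in deficient hearts. Cdkn1a, which encodes p21, went from 138 ± 33.9 to 376 ± 28.6 CPM in Flox and from 112 ± 30.7 to 398 ± 57.4 CPM in deficient hearts (1.44 ± 0.18 and 1.83 ± 0.19). Cdkn1c, which encodes p57, fell from 13.6 ± 1.25 to 3.87 ± 0.157 CPM in Flox and from 14.1 ± 2.03 to 3.22 ± 0.274 CPM in deficient hearts (−1.81 and −2.13). Cdkn2d rose by 1.10 and 0.99, and Cdkn1b, which encodes p27, fell by 0.61 in deficient hearts. Cdkn2a, listed at 0 in all 4 Flox LPS libraries, was called lower there at levels too low for a fold. The inhibitors thus moved in both directions.

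Of 7 G1 cyclins and kinases, Ccnd2, a D-type cyclin, fell by 1.16 in Flox and by 1.27 in deficient hearts, and no other was called. Cdc25a, Ccnd1 and Cdk4 gave changes between 0.15 and 0.48. Of 13 genes for retinoblastoma family proteins and transcription factors, Myc rose from 1.95 ± 0.412 to 17.0 ± 1.88 CPM in Flox and from 3.14 ± 1.48 to 14.4 ± 2.24 CPM in deficient hearts (3.13 ± 0.26 and 2.20 ± 0.25). The repressor E2f6 fell by 0.95 and 1.04. E2f8, another repressor, fell by 1.09 in Flox hearts and gave 0.22 ± 0.35 in deficient hearts, a difference between effects that was not called (adjusted p = 0.813), and E2f4 rose by 0.25 in deficient hearts.

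Of 16 genes of origin licensing and firing that were tested, 3 rose and 1 fell in Flox hearts and 2 rose and 1 fell in deficient hearts. Gins1, a subunit of the GINS complex that joins the MCM ring in the active helicase, rose by 1.87 ± 0.29 and 1.95 ± 0.29. Gmnn, which encodes the licensing inhibitor geminin, fell by 0.89 and 0.84. Orc5 of the origin recognition complex rose by 0.36 in Flox hearts, and Dbf4, the activator of the firing kinase, by 0.92 in deficient hearts. Of 19 polymerase and fork genes, 6 rose and 2 fell in Flox hearts and 5 rose and 3 fell in deficient hearts. Pola2 of the primase complex rose by 1.36 ± 0.13 and 1.68 ± 0.13, Rpa2 by 0.88 and 0.67, and Rfc3 of the clamp loader by 0.68 and 0.81. Fen1, the flap nuclease, rose by 3.39 ± 0.36 and 2.04 ± 0.34, but it lies opposite the antisense gene Gm10143 over 3253 bases, which rose by 8.81 and 5.40, so its reads are uncertain.

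**Figure D5:**
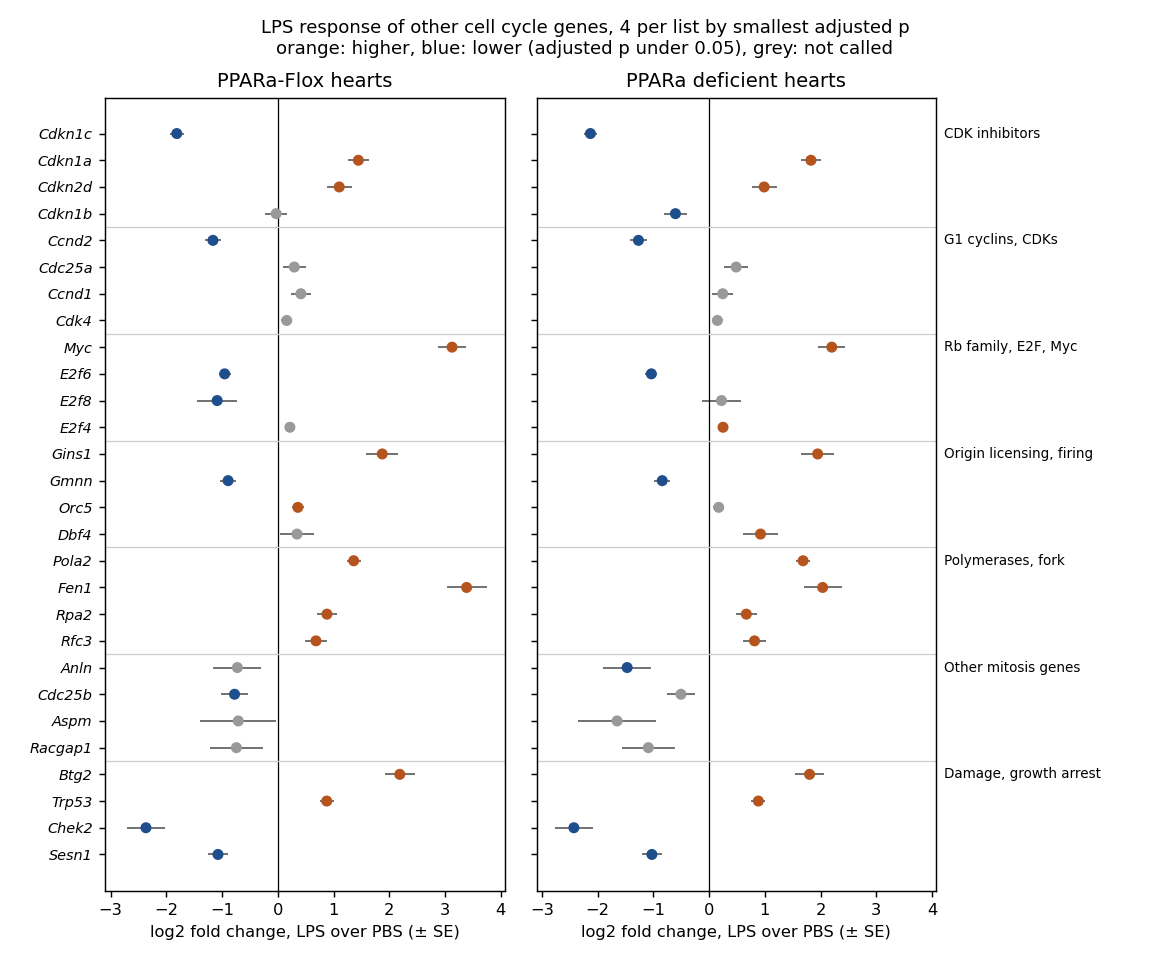
Log2 fold change of LPS over PBS (points) with SE (bars) for the 4 genes of each related list with the smallest adjusted p, in PPARa-Flox hearts on the left and PPARa deficient hearts on the right. Myc, Fen1, Gins1 and Pola2 lie to the right in both panels, Cdkn1c, Ccnd2 and Chek2 to the left, and the other mitosis genes have wide bars.

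Of the 23 other mitosis genes, none rose by edgeR and 1 fell in each genotype (Cdc25b by 0.78 in Flox and Anln by 1.47 in deficient hearts). At an unadjusted p under 0.05, edgeR had 2 and 5 genes (8.70% and 21.7%), beside 46.8% and 45.7% of all genes tested. Both shares lay below the background. The median changes of the list were −0.67 and −0.61. These medians hung on single PBS hearts too, being −0.055 in Flox hearts without Flox PBS replicate 1 and 0.24 in deficient hearts without deficient PBS replicate 2. Aspm and Racgap1 gave −0.71 ± 0.69 and −0.74 ± 0.47 in Flox and −1.65 ± 0.70 and −1.09 ± 0.48 in deficient hearts. Of 13 genes of DNA damage and growth arrest, 6 rose and 3 fell in Flox and 7 rose and 3 fell in deficient hearts. Trp53, which encodes p53, rose by 0.88 ± 0.12 in each genotype and Btg2, an antiproliferative gene, by 2.19 and 1.80. Chek2, the checkpoint kinase, fell by 2.37 and 2.43, and Sesn1, a stress gene known as a p53 target, fell by 1.07 and 1.03.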

How the data were processed

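RNA of heart tissue was sequenced in 16 libraries of 4 groups. The authors deposited estimated counts per gene symbol, whole numbers with no scaling between samples, per the file headers and values. Per the submitters' processing notes the tools include HISAT, fastp (version 0.23.2), DESeq2 (version 1.30.1) and StringTie (version 1.3.3b), with the build GRCm38. Which tool counted, with which annotation and strand setting, is not given in the sources used here. Values that are multiples of 4 were in excess among low counts (10 of the 10 up to 40), so a read pair may count as about 4, which was not tested, and the depth may be nearer 16392284 to 18859006 pairs than the totals. Of 55421 table lines, 27 with symbols turned into dates were left out (0.0644% to 0.0861% of counts) and repeated symbols were summed.

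Genes were kept by filterByExpr (18713) and fitted with edgeR 4.0.16 (TMM, glmQLFit, glmQLFTest; R 4.3.3) as 4 group means over 16 libraries, with 12 residual degrees of freedom and Benjamini-Hochberg adjustment over all genes. The SE is the log2 fold change over the root of F, and 95% intervals use the test's degrees of freedom. Groups come from the genotype and treatment labels. The members, the lists and the rule for named genes were chosen with earlier results of these data known. The rule took every called member, the 4 with the smallest p where none was called, and up to 4 genes of each related list. Alternatives were other scalings and filters, DESeq2 1.42.0, limma-voom (limma 3.58.1), counts divided by 4, an adjusted p under 0.01, a fit to the 8 libraries of each comparison, a block for the replicate number, leaving out each library, and leaving out Flox LPS replicate 4 with deficient LPS replicate 3. Added after seeing the data were PBS libraries numbered under or over 1000 alone and that number series as a block. On simulated data over 18713 genes, the model for LPS in Flox hearts recovered 16.4% of genes changed by 0.5 (log2), 65.7% of those changed by 1 and 95.5% of those changed by 2. For the interaction it recovered 3%, 40.3% and 84.8%. The changed genes, 66 or 67 per size, were drawn from genes with a mean of at least 1 CPM. These shares thus do not cover members below that level, such as Bub1 (0.247 CPM) and Cenpe (0.416 CPM). Far fewer genes were changed there than LPS called in the data.

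Gene positions and exon lengths came from GENCODE vM21 and promoter windows from RefSeq. Of the members, 15 overlap another gene. Figures were drawn with matplotlib 3.10.9, and tables made with pandas 2.3.3 and numpy 2.4.6 in Python 3.11.15.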

Additional observations from a re-analysis of the deposited data

Results flagged for a closer look

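Among 144 groups of 4 libraries, of the 34 genes and of 2 summed levels, 15 held a library far from the other 3. Chance flags about 1 in 20 groups if values are independent and normally spread. Genes that were high together in the same hearts, and sums of those genes, are not independent, so the count cannot be judged by that rate. Of the 15, 7 were highest in deficient PBS replicate 2, all of G2 and mitosis. These were Mki67 at 12.3 CPM (the others 1.79 to 3.15), Top2a at 9.55, Kif11 at 4.91, Cdk1 at 2.78, Nusap1 at 2.58 and Ube2c at 1.69 CPM, and the sum of the 21 mitosis genes at 83.5 CPM (the others 32.1 to 33.6). Flox PBS replicate 1 was highest for Birc5 at 1.51 CPM (the others 0.342 to 0.483) and for Bub1 at 0.910 CPM (0.0569 to 0.117). Flox PBS replicate 3 was highest for Cenpf at 25.2 CPM (7.23 to 10.1). Flox PBS replicate 4 was lowest for Kif20a at 1.21 CPM (2.25 to 2.44) and for Mcm3 at 4.38 CPM (5.22 to 5.37). Single values stood out for Ccne1 in deficient PBS replicate 4 at 1.08 CPM (0.498 to 0.550), Ccnb1 in deficient LPS replicate 2 at 0.686 CPM (0.189 to 0.264) and Rrm1 in Flox LPS replicate 3 at 16.4 CPM (12.7 to 13.3).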

How the results depend on the processing

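No called change of a member reversed its sign, while medians of the mitosis genes and of all members did, as given below. In Flox hearts the calls of Mcm3, Mcm4, Mcm6, Ccne1 and Cenpf, and in deficient hearts those of Mcm4, Mcm7 and Cenpf, held in all 29 alternatives. At this depth Ccnb2, Aurkb and Bub1 had 0 counts in at least 1 library. Flox PBS replicate 4, at 0 for Ccnb2 and Aurkb, held 74817879 counts in all, and replicate 1, above 0 for both, 71568584. Leaving out 1 library at a time, the median change of the 21 G2 and mitosis genes ranged from −0.79 to 0.037 in Flox hearts (highest without Flox PBS replicate 1) and from −0.87 to −0.074 in deficient hearts (highest without deficient PBS replicate 2). Between genotypes it ranged under PBS from −0.48 (without deficient PBS replicate 2) to 0.46 around 0.10, and for the interaction from −0.58 to 0.48 around −0.07. The median of all members in Flox hearts ranged from −0.50 to 0.25. Members called lower in Flox hearts ranged from 1 to 4, and members called higher in deficient hearts from 3 to 5. Members called lower in Flox hearts were 4 with DESeq2 and 1 with no filter, limma-voom or an adjusted p under 0.01, where deficient hearts had 3 higher and 1 lower. With only PBS libraries numbered under 1000, an alternative chosen after seeing the data, 4 were lower in Flox and 2 higher in deficient hearts, with medians of −0.79 (all members, Flox) and −1.20 (mitosis, deficient). With only those numbered over 1000, 1 was lower in Flox hearts, with medians of 0.35 (all members) and 0.34 (mitosis). Over 1000 alone, Ube2c in Flox hearts was called higher at 1.96 (−0.25 with all libraries). The cause was not tested.

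With the replicate number as a replicate block, 8 members were higher, Tyms among them, and 1 lower in Flox hearts, and 5 higher and 2 lower in deficient hearts. E2f1 (−0.99) and, in deficient hearts, Kif11 (−1.34) were no longer called. Same-numbered libraries did not deviate together (1 of 24 correlations over 0.1, median 0.0193), so no pairing by number was seen. Among libraries with different numbers, the highest correlation was 0.308, between Flox LPS replicate 4 and deficient LPS replicate 3. Those libraries are the pair left out together as an alternative. Over all genes, DESeq2 called 48 higher and 135 lower between genotypes under PBS (edgeR 6 and 75), 200 and 244 after LPS (edgeR 72 and 159), and 26 and 29 for the interaction (edgeR 0 and 0). After LPS, the genes higher between genotypes were 44 with no filter, 45 with the replicate block, 25 with only the 8 libraries compared, 26 or 32 with PBS libraries numbered under or over 1000 alone, 18 at an adjusted p under 0.01, and 33 to 79 leaving out 1 library, the fewest without Flox LPS replicate 2. Under PBS they were 12 with only the 8 libraries compared, 13 with the number series as a block, 2 at an adjusted p under 0.01 and 5 to 10 leaving out 1 library, and genes lower were 35 or 42 with PBS libraries numbered under or over 1000 alone. With counts divided by 4 the interaction had 3 higher and 1 lower.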
